A study of Homo sapiens with 12 samples.

Results

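The 40 genes described here encode the chaperones, disulfide enzymes, degradation machinery and stress sensors of the endoplasmic reticulum (ER). With them stand 4 genes of protein translocation into the ER and signal peptide cleavage. They were chosen by gene symbol, as 40 of the 25680 symbols in the deposited count tables. All 40 were found, and all 40 passed the filter on low counts that left 16782 genes for testing. The files use older symbols for 3 of them: ERO1L for ERO1A, ERO1LB for ERO1B and VIMP for SELENOS. The genes were grouped by role into 11 folding chaperones and partners of the HSP70-type chaperone, 3 lectin chaperones and glycoprotein folding controls, 7 disulfide enzymes, 12 genes of ER-associated degradation (ERAD), 3 sensors and 4 translocation genes.

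RNA came from a pair of human lines of multiple myeloma, called MM.1S and U266. Each was exposed for 6 h to 6 µM IT848, described by the submitters as an inhibitor of NF-kB, or to the solvent DMSO alone. There were 4 groups of 3 libraries: MM.1S with IT848, MM.1S with DMSO, U266 with IT848 and U266 with DMSO. The labels name 1 dose and 1 time, and each line is a single established culture. Whether the libraries within a group stem from separate cultures is not stated, so p-values measure the spread between these libraries, which may be technical.

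A myeloma cell is a malignant plasma cell, and a plasma cell secretes antibody in bulk, so its ER folds, glycosylates and inspects a heavy flow of protein. When misfolded protein builds up, the unfolded protein response (UPR) starts from 3 sensors in the ER membrane. IRE1 (gene ERN1) splices XBP1 RNA to yield an active transcription factor, PERK (gene EIF2AK3) slows translation and favours the factor ATF4, and ATF6 is cut to release its own transcription factor. Their targets include chaperones, which fold the load, and ERAD genes, which send what cannot be folded to the proteasome.

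The UPR factors ATF6 and XBP1 are known to act through short promoter elements, and these are shown because some of the members carry them. They were searched on both strands from 250 bases before to 50 bases after each gene's start in RefSeq promoter sequences of GRCh38.p14, which held 36 of the 40 genes. The ER stress element (ERSE) was searched as CCAAT, 9 unspecified bases and CCACG. It occurred in 7 of the 36 promoters (19.4%) and in 25 of 27305 genes (0.0916%): HSPA5, HSP90B1, CRELD2, CALR, CANX, PDIA6 and ERO1LB. The shorter ERSE-II, searched as ATTGG, 1 unspecified base and CCACG, occurred in HYOU1, SDF2L1 and HERPUD1, against 0.0696% of all genes. The unfolded protein response element (UPRE), searched as TGACGTGG, occurred in HYOU1, DNAJC10 and TXNDC5, against 0.927% of all genes. Each element shown is printed in capitals within its flanks and read 5′ to 3′ on the strand of the gene. An element that lies in the opposite direction appears as its reverse complement. Not printed are the ERSEs of CANX and ERO1LB and the UPREs of DNAJC10 and HYOU1. A further ERSE-II of HYOU1, 79 to 69 bases before the start, is not printed either.
HSPA5, ERSE, chr9:125241371-125241429, minus strand: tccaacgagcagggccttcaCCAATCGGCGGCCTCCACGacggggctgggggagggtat
HSP90B1, ERSE, chr12:103930196-103930254, plus strand: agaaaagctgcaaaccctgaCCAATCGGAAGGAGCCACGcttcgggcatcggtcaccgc
HSP90B1, ERSE reversed, chr12:103930301-103930359, plus strand: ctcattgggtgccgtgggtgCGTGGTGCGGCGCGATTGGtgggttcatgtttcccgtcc
CALR, ERSE reversed, chr19:12938364-12938422, plus strand: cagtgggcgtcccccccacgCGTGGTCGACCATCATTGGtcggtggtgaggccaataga
CRELD2, ERSE reversed, chr22:49918534-49918592, plus strand: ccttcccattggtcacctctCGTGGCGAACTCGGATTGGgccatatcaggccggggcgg
PDIA6, ERSE, chr2:10812833-10812891, minus strand: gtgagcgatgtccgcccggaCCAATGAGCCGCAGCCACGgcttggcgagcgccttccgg
XBP1, ERSE, chr22:28800583-28800641, minus strand: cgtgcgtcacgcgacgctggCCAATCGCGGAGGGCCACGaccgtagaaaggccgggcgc
HERPUD1, ERSE-II, chr16:56932005-56932055, plus strand: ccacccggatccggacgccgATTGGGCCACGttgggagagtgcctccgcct
HYOU1, ERSE-II reversed, chr11:119057360-119057410, minus strand: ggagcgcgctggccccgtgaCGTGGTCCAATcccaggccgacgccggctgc
SDF2L1, ERSE-II reversed, chr22:21642094-21642144, plus strand: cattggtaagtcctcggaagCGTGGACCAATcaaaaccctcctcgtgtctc
TXNDC5, UPRE, chr6:7910142-7910189, minus strand: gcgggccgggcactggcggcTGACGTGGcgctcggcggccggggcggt
The ERSE of HSPA5 lies 66 to 48 bases before the start of the gene, and that of XBP1, which is no member but encodes a UPR factor, lies 52 to 34 bases before it. In HYOU1 the UPRE overlaps the ERSE-II shown. A match is a description of these letters and no proof of a bound site. The members were chosen by name as genes of this response, so the shares with an element describe the list and do not test it.

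Both lines carried plasma cell transcripts: all 8 plasma cell markers examined, SDC1, IRF4, PRDM1, TNFRSF17, CD38, SLAMF7, IKZF1 and POU2AF1, were above 1 CPM in every group. CPM is a count scaled to the size of its library, here with TMM, a method that sets libraries on a common scale. With IT848, every library lay below every DMSO library for 6 of the 8 in MM.1S and 7 of the 8 in U266, and above for TNFRSF17 and SLAMF7 in MM.1S and for SLAMF7 in U266. Of all genes tested, 47.2% in MM.1S and 28.9% in U266 had libraries that did not overlap, in either direction. SDC1, the plasma cell surface marker CD138, had 321, 320 and 314 CPM with IT848, against 646, 662 and 656 CPM with DMSO in MM.1S, and 726, 730 and 746 CPM against 1104, 1020 and 1077 CPM in U266. The 8 markers summed to 6084 to 6256 CPM with IT848 against 6401 to 6568 CPM with DMSO in MM.1S, and to 2729 to 2807 CPM against 3152 to 3278 CPM in U266. Markers of other cell types were low: LYZ, S100A8, KRT19, HBA1 and HBA2 were below 0.1 CPM in every library, while CSF1R reached 3.94 CPM, KRT8 3.10 CPM and CD8A 2.59 CPM, all in U266. HBB, a globin gene, had 3.99, 4.47 and 5.31 CPM with IT848 in MM.1S, against 1.97, 2.08 and 1.90 CPM with DMSO. The stromal list (COL1A1, COL1A2, COL3A1, PDGFRB, LUM and DCN) stood low and moved with the treatment. Its 6 genes summed to 23.4 to 29.6 CPM in the IT848 libraries of MM.1S against 15.9 to 20.4 CPM in the DMSO libraries, and to 35.5 to 43.6 CPM against 28.1 to 32.9 CPM in U266. The part of these marker changes in the results on IT848 was not tested. A pair of libraries held signal of genes specific to the other line, called reads of the other line below. In U266 IT848 replicate 1, 8 genes high in MM.1S stood at 0.866% of their MM.1S level, against 0.075% and 0.0773% in the other replicates. In MM.1S DMSO replicate 2, 13 genes high in U266 stood at 0.358% of their U266 level, against 0.0316% and 0.0483%. No gene met the rule of this check for the U266 DMSO and MM.1S IT848 libraries, so these could not be checked. The source of the signal was not tested. Library totals were 50627690 to 72039748 transcript counts, and the lowest count of any member in any library was 104.

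Untreated MM.1S cells carried more RNA of these genes than untreated U266 cells. Per transcript length, the 40 genes took 1.63 ± 0.019% of the total in MM.1S DMSO and 1.03 ± 0.0028% in U266 DMSO (SD, n = 3 each). Levels per length are counts of the most counted transcript divided by its length. They are a share of the sum over all genes of a library in the units of TPM, and only these were compared between genes. They are not scaled by TMM. A difference between the lines can therefore have another size here than in the CPM used below. TXNDC5, a disulfide isomerase of secretory cells, stood highest among the members in both lines, at 3589 ± 118 in MM.1S DMSO and 2787 ± 24.2 in U266 DMSO. ERO1LB, an oxidase that recharges disulfide isomerases, stood lowest, at 3.73 ± 0.11 and 1.76 ± 0.34. After TXNDC5, the order was HSP90B1, MZB1, CALR and P4HB in MM.1S, and HSPA5, HSP90B1, P4HB and CALR in U266. In U266 the neighbours P4HB (708 ± 24.0) and CALR (703 ± 11.6) did not differ beyond their spread.

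**Figure D1:**
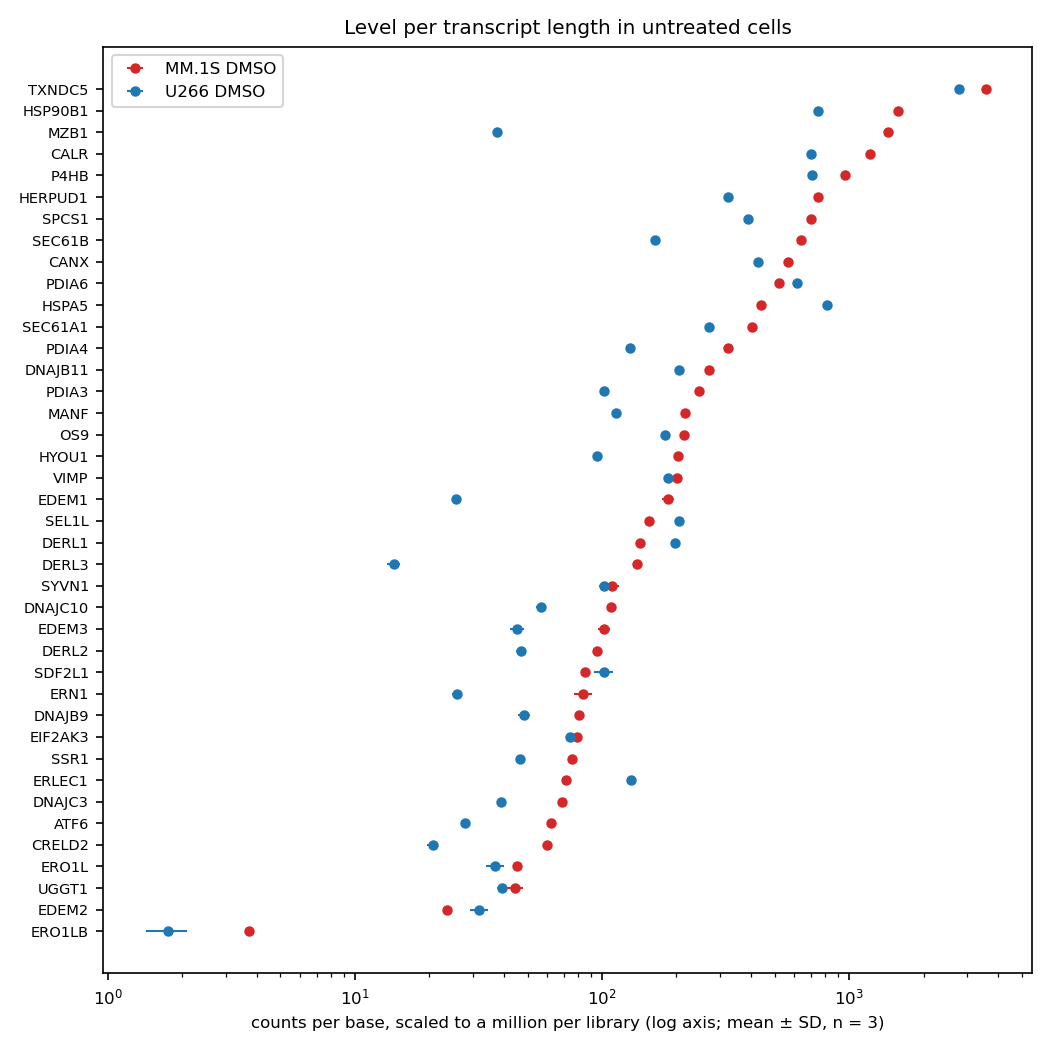
Level per transcript length (counts per base in the units of TPM, log axis) of the 40 genes in MM.1S DMSO and U266 DMSO, as mean ± SD of 3 libraries, ordered by the level in MM.1S. TXNDC5 leads in both lines, and MZB1, EDEM1 and DERL3 show the widest gaps between the lines.

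The lines differed in 37 of the 40 genes, 27 higher and 10 lower in MM.1S (edgeR, adjusted p below 0.05), while 82.6% of all genes tested differed, 40.6% higher and 42.1% lower. The libraries of the lines did not overlap for 37 of the 40, against 84.7% of all genes tested. The median difference over the members, MM.1S minus U266, was 0.48 on the log2 scale, against −0.02 over all genes. In bulk RNA, fewer cells that express a gene and less RNA of it per cell cannot be told apart.

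MZB1, a plasma cell partner of HSP90B1 that aids antibody assembly, had 239, 246 and 258 CPM in the MM.1S DMSO libraries, against 7.68, 7.78 and 8.04 CPM in those of U266. Every MM.1S library lay far above every U266 library, a log2 difference of 4.98 ± 0.08 (SE; edgeR, adjusted p = 4.11e-16). DERL3, a derlin of the ERAD channel found in secretory cells, had 249, 246 and 246 CPM in MM.1S DMSO, against 31.3, 31.0 and 34.4 CPM in U266 DMSO, a log2 difference of 2.94 ± 0.05. EDEM1, a lectin-like mannosidase homologue that marks misfolded glycoproteins for disposal, had 239, 245 and 228 CPM in MM.1S DMSO, against 39.1, 39.3 and 40.8 CPM in U266 DMSO, a log2 difference of 2.58 ± 0.05. The other members at least 2-fold higher in MM.1S were SEC61B, ERN1, CRELD2 and PDIA4, with log2 differences of 1.68 ± 0.07, 1.42 ± 0.07, 1.26 ± 0.05 and 1.04 ± 0.04.

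The central chaperone gene was lower in MM.1S. HSPA5, which encodes BiP, had 355, 370 and 365 CPM in MM.1S DMSO, against 813, 825 and 817 CPM in U266 DMSO (log2 difference −1.17 ± 0.04; edgeR, adjusted p = 8.17e-13). ERLEC1, an ER lectin of ERAD, was likewise lower in MM.1S, by a log2 difference of −1.15 ± 0.04. The groups did not overlap for either gene. Of the 12 ERAD genes, 5 were higher and 6 lower in MM.1S, whereas all 4 translocation genes and 9 of the 11 folding chaperones were higher. Among the sensors, ERN1 and ATF6 were higher in MM.1S and EIF2AK3 was slightly lower in CPM (−0.19 ± 0.05). Per transcript length the order was reversed, with EIF2AK3 at 79.3 ± 1.40 in MM.1S DMSO and 74.4 ± 0.95 in U266 DMSO (SD). VIMP and SYVN1 were likewise lower in CPM and stood higher per length in MM.1S, SYVN1 within its spread. The direction of such small differences between the lines thus depended on the scale. UGGT1, OS9 and ERO1L did not pass the test, with 95% intervals of the log2 difference of −0.24 to 0.04, −0.10 to 0.07 and −0.11 to 0.13.

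In MM.1S treated with IT848, 2 of the 3 UPR sensors and part of the ERAD machinery fell, and 1 of the 11 folding chaperones passed the test as fitted. Of the 40 genes, 6 rose and 12 fell (edgeR, adjusted p below 0.05), that is 45% of them, while 38.3% of all genes tested were called in this line, 18.7% higher and 19.6% lower. Changes were small: they ran from −0.60 to 0.50 on the log2 scale with a median of 0.0032, and none reached 2-fold. In absolute size the median change was 0.112 over the members, against 0.234 over all genes. The IT848 and DMSO libraries did not overlap for 24 of the 40, against 47.2% of all genes tested. Both shares lie near the background of this line.

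**Figure D2:**
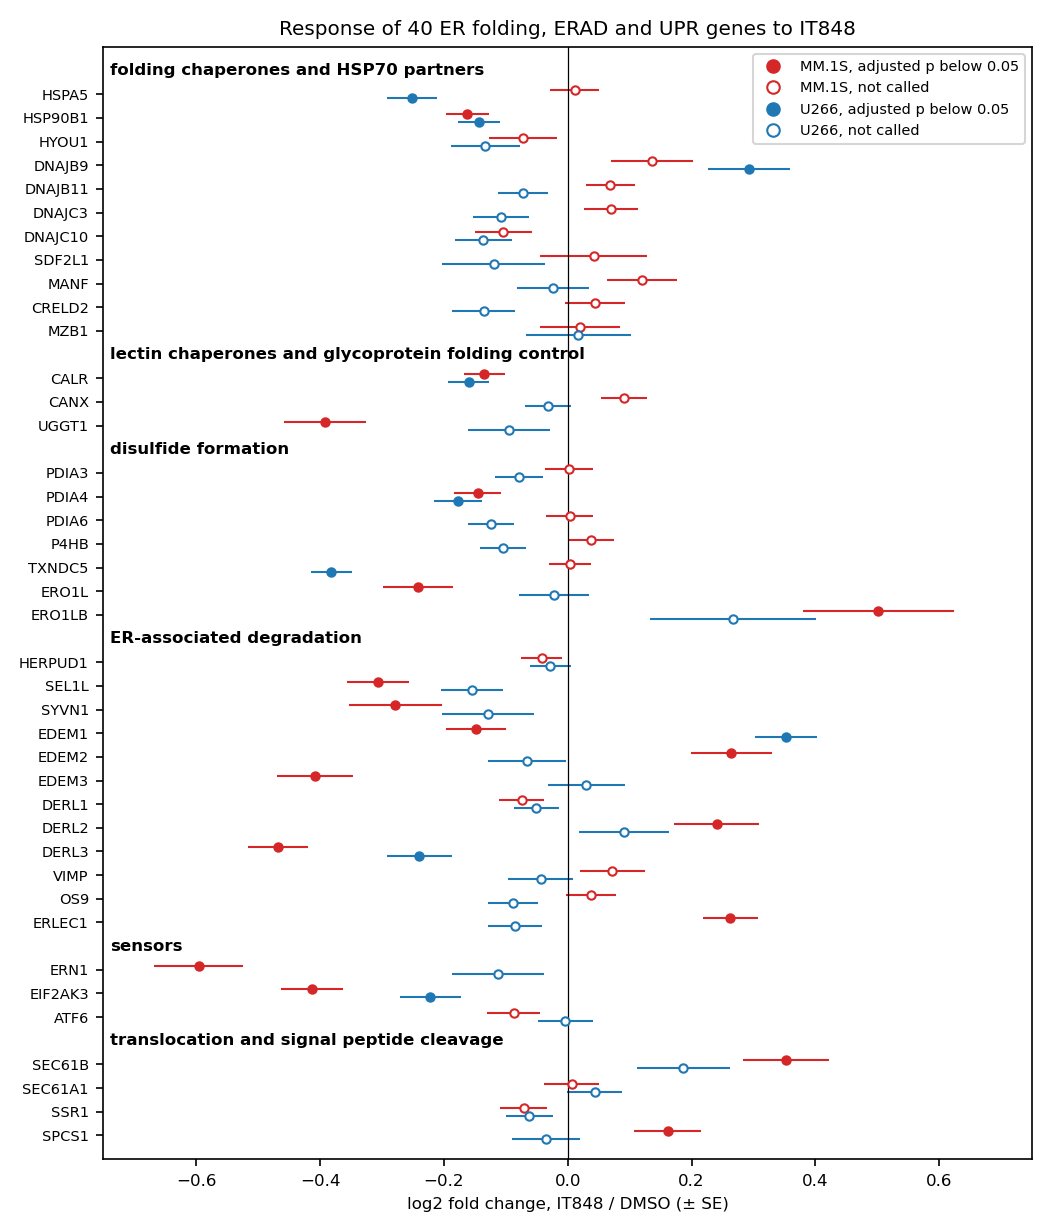
Log2 fold change of IT848 over DMSO (± SE) of the 40 genes, ordered by role, in MM.1S (red, upper point of each pair) and U266 (blue, lower point); filled points have an adjusted p below 0.05 by edgeR. Sensors and several ERAD genes lie left of 0 in MM.1S, while EDEM1 lies on opposite sides in the lines.

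The sensor ERN1, which encodes IRE1, had 50.5, 46.9 and 41.7 CPM in the IT848 libraries of MM.1S, against 75.2, 68.1 and 67.0 CPM in the DMSO libraries. Every IT848 library lay below every DMSO library, and the fall of 0.60 ± 0.07 on the log2 scale was the widest change among the members (edgeR, adjusted p = 1.69e-05). EIF2AK3, the gene of PERK, had 60.2, 58.4 and 54.5 CPM with IT848, against 75.9, 77.1 and 77.5 CPM with DMSO, again without overlap (log2 fold change −0.41 ± 0.05; edgeR, adjusted p = 1.9e-05). ATF6 had 94.6, 91.3 and 91.2 CPM with IT848, against 97.5, 96.5 and 100.3 CPM with DMSO. These libraries did not overlap either, but the change of −0.09 ± 0.04 did not pass the test.

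ERAD genes moved in both directions, with 3 of 12 higher and 5 lower. DERL3 had 184, 183 and 169 CPM with IT848, against 249, 246 and 246 CPM with DMSO, all IT848 libraries being lower (log2 fold change −0.47 ± 0.05; edgeR, adjusted p = 4.42e-06). EDEM3, a mannosidase that trims glycans of misfolded proteins, had 111, 109 and 98.7 CPM with IT848, against 146, 136 and 139 CPM with DMSO (−0.41 ± 0.06). SEL1L and SYVN1 encode the adaptor and the ubiquitin ligase of the HRD1 complex. SEL1L had 253, 249 and 227 CPM with IT848, against 303, 297 and 301 CPM with DMSO (−0.31 ± 0.05, or −0.16 with a trend over transcript length taken out), and SYVN1 fell by 0.28 ± 0.08. EDEM1 fell by 0.15 ± 0.05. The reverse held for other genes of the group. ERLEC1 had 131, 139 and 143 CPM with IT848, against 112, 114 and 119 CPM with DMSO, with no overlap (0.26 ± 0.04; edgeR, adjusted p = 3.22e-04). EDEM2, which starts mannose trimming, had 35.1, 37.9 and 39.0 CPM with IT848, against 30.6, 30.6 and 32.0 CPM with DMSO (0.26 ± 0.07), and DERL2, another derlin, rose by 0.24 ± 0.07. HERPUD1, DERL1, VIMP and OS9 lay between −0.07 and 0.07 and were not called.

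Among folding genes the changes in MM.1S were few. HSP90B1, which encodes the ER chaperone GRP94, had 858, 838 and 823 CPM with IT848, against 917, 940 and 962 CPM with DMSO, so every treated library was lower (−0.16 ± 0.03; edgeR, adjusted p = 0.00192). It was the only one of 11 folding chaperones called in this fit, whereas DNAJC3, SDF2L1 and MZB1 were called as well with a trend over transcript length taken out. HSPA5 had 385, 366 and 347 CPM with IT848, against 355, 370 and 365 CPM with DMSO. Its groups overlapped, and the 95% interval of the log2 fold change was −0.08 to 0.10. Of the lectin group, CALR (calreticulin) fell by 0.13 ± 0.03 and UGGT1, the glucosyltransferase that returns unfolded glycoproteins to the lectins, fell by 0.39 ± 0.07. UGGT1 had 168, 158 and 136 CPM with IT848, against 210, 206 and 191 CPM with DMSO, and its log2 fold change was −0.20 with the length trend out. CANX (calnexin) had 1298, 1238 and 1207 CPM with IT848, against 1157, 1176 and 1181 CPM with DMSO. These libraries did not overlap, but the change of 0.09 ± 0.04 was not called.

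In the disulfide group 1 gene rose and 2 fell, and its oxidase genes moved in opposite directions. ERO1LB had 5.51, 6.02 and 5.16 CPM with IT848, against 3.96, 3.78 and 4.06 CPM with DMSO, a rise of 0.50 ± 0.12 without overlap from a low level (edgeR, adjusted p = 0.00484). The related oxidase gene ERO1L had 25.8, 26.9 and 26.6 CPM with IT848, against 31.2, 31.0 and 31.6 CPM with DMSO, a fall of 0.24 ± 0.06. Of the isomerase genes, PDIA4 fell by 0.15 ± 0.04, while PDIA3, PDIA6, P4HB and TXNDC5 lay between 0.00 and 0.04 and were not called. At the channel, SEC61B, the small beta subunit, had 84.9, 94.7 and 106 CPM with IT848, against 70.8, 73.7 and 79.0 CPM with DMSO (0.35 ± 0.07). SPCS1, a signal peptidase subunit, rose by 0.16 ± 0.05, and SEC61A1 and SSR1 were not called.

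**Figure D3:**
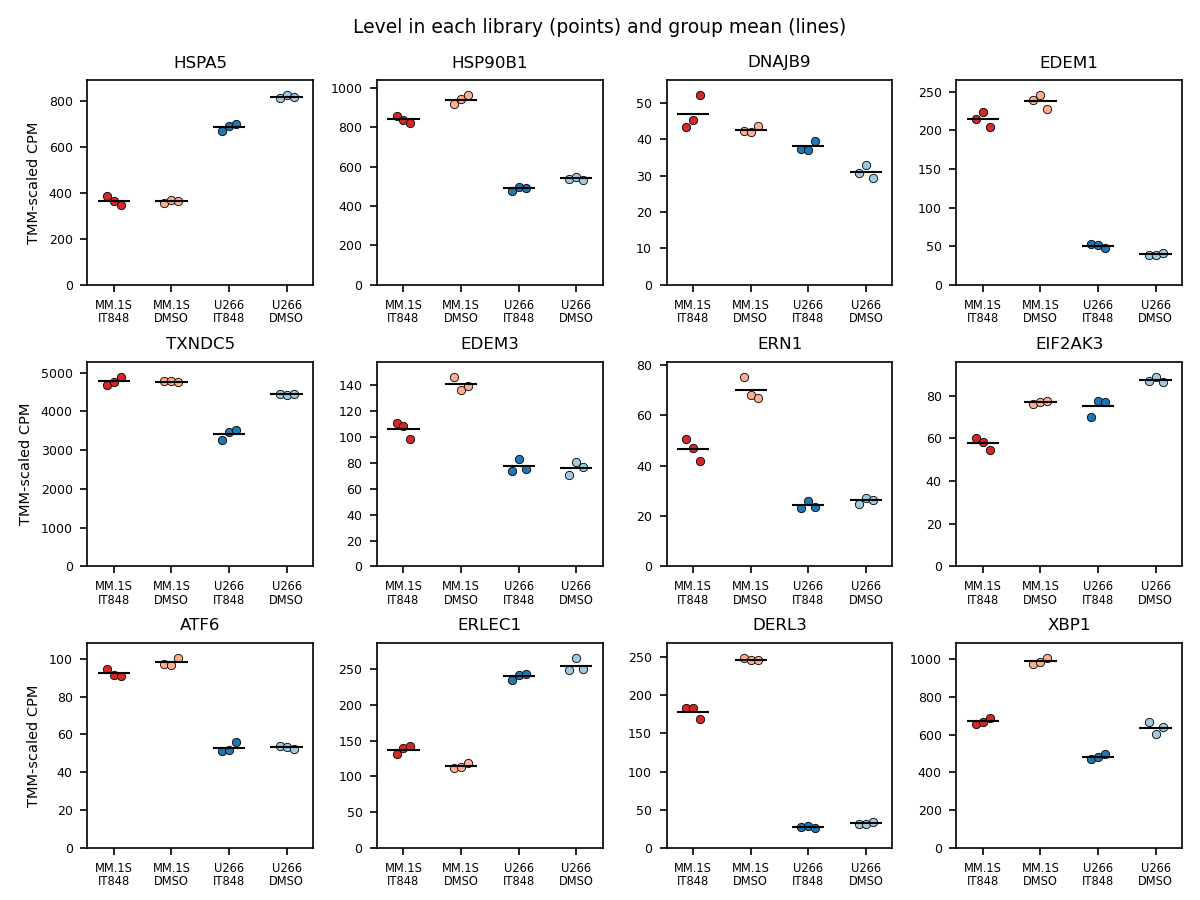
TMM-scaled CPM of 11 members and of XBP1 in each of the 12 libraries (points) with the group mean (lines), IT848 left of DMSO within each line. ERN1, EDEM3 and DERL3 lie lower with IT848 in MM.1S, HSPA5 and TXNDC5 do so in U266, and EDEM1 lies higher with IT848 in U266.

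In MM.1S these changes moved together with transcript length. Across the members, Spearman's correlation of the log2 fold change with transcript length was −0.544, against −0.35 over 10359 genes. It describes genes that share the same 6 libraries. Members that rose had a median length of 1626.5 bases, and those that fell 3657.5 bases. The libraries themselves differed in this respect: the correlation of a library's deviation with length was −0.46 to 0.0366 in the IT848 libraries and 0.156 to 0.415 in the DMSO libraries. With a smooth length trend taken out of each library, 5 members rose and 14 fell, and the correlation over members was 0.0739. EDEM1, DERL2, SEC61B and SPCS1 then lost their call, with SEC61B at 0.04 and SPCS1 at −0.03. ERN1, EIF2AK3, DERL3 and ERO1LB stood at −0.56, −0.35, −0.47 and 0.58, and the falls of UGGT1, SEL1L and EDEM3 were smaller, at −0.20, −0.16 and −0.29. A further 5 members gained a call: DNAJC3 (0.16) and CANX (0.16) were higher, and MZB1 (−0.22), SDF2L1 (−0.20) and HERPUD1 (−0.12) were lower. Of the 18 calls, 12 held under every alternative run: HSP90B1, UGGT1, ERO1L, ERO1LB, SEL1L, SYVN1, EDEM2, EDEM3, DERL3, ERLEC1, ERN1 and EIF2AK3.

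**Figure D4:**
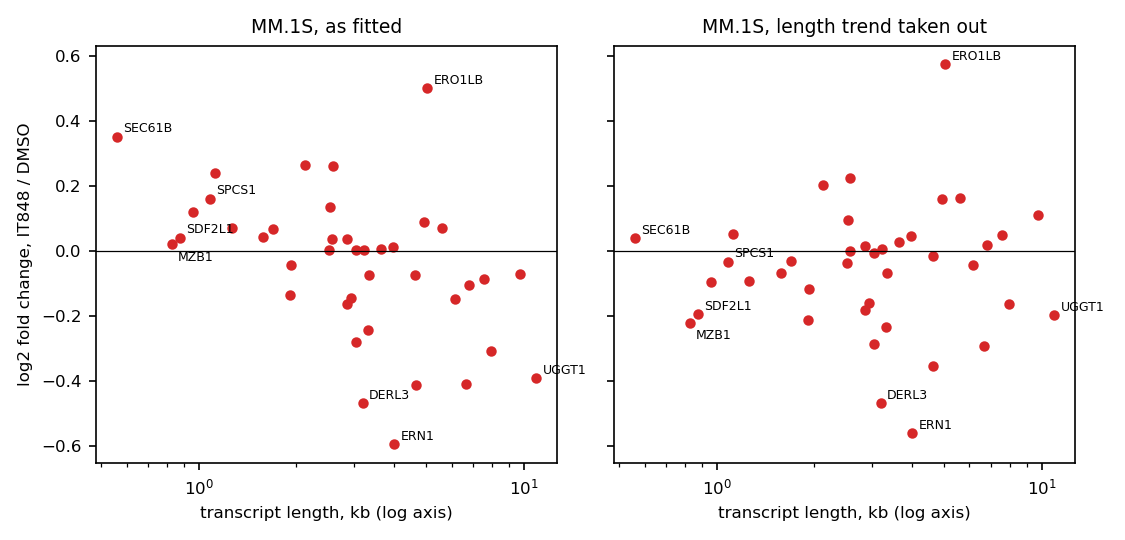
Log2 fold change of IT848 over DMSO in MM.1S for the 40 genes against transcript length in kb (log axis), as fitted (left) and with a smooth length trend taken out of each library (right). SEC61B, the shortest member, stands at 0.35 as fitted and at 0.04 with the trend out, while DERL3 stands at −0.47 in both.

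In U266 treated with IT848, TXNDC5 and HSPA5 fell and EDEM1 rose, and 5 other members were called lower and DNAJB9 higher. Of the 40 genes, 2 rose and 7 fell (edgeR, adjusted p below 0.05), 22.5% of them, while 9.01% of all genes tested were called in this line, 4.03% higher and 4.98% lower. The IT848 and DMSO libraries did not overlap for 25 of the 40, against 28.9% of all genes tested. The median log2 fold change over the members was −0.08, against 0.01 over all genes, and the range was −0.38 to 0.35. In absolute size the median change was 0.106 over the members and 0.113 over all genes. The larger shares called and without overlap thus did not come with larger changes.

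TXNDC5 had 3255, 3475 and 3510 CPM in the IT848 libraries of U266, against 4450, 4433 and 4459 CPM in the DMSO libraries. The groups lay well apart, and the fall was 0.38 ± 0.03 on the log2 scale (edgeR, adjusted p = 3.82e-06). HSPA5, which carries the ERSE printed above, had 670, 692 and 701 CPM with IT848, against 813, 825 and 817 CPM with DMSO, every treated library being lower (−0.25 ± 0.04; edgeR, adjusted p = 8.85e-04). Smaller falls were called for the chaperone genes CALR (−0.16 ± 0.03) and HSP90B1 (−0.14 ± 0.03) and the isomerase gene PDIA4 (−0.18 ± 0.04), while CANX stood at −0.03 ± 0.04 and was not called. CALR had 304, 303 and 306 CPM with IT848, against 345, 334 and 340 CPM with DMSO. PDIA4 had 84.1, 86.6 and 86.0 CPM with IT848, against 98.6, 94.3 and 97.3 CPM with DMSO. For both genes the groups did not overlap.

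DNAJB9, a BiP cochaperone that restrains IRE1, had 37.4, 37.0 and 39.6 CPM with IT848, against 30.8, 32.9 and 29.4 CPM with DMSO, without overlap (0.29 ± 0.07; edgeR, adjusted p = 0.0116). EDEM1 had 52.8, 51.6 and 48.0 CPM with IT848, against 39.1, 39.3 and 40.8 CPM with DMSO (0.35 ± 0.05; edgeR, adjusted p = 3.39e-04). In this fit it was the only one of 12 ERAD genes to rise and DERL3 the only one to fall. DERL3 had 27.1, 28.5 and 26.4 CPM with IT848, against 31.3, 31.0 and 34.4 CPM with DMSO (−0.24 ± 0.05). SEL1L (−0.15 ± 0.05) and SYVN1 (−0.13 ± 0.07) were not called in U266, but SEL1L was called lower by DESeq2, with 1 transcript per gene, with the replicate block, with the length trend taken out and in a fit of the U266 libraries alone.

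Of the sensors, EIF2AK3 had 70.0, 77.7 and 77.2 CPM with IT848, against 87.0, 88.9 and 86.4 CPM with DMSO (−0.22 ± 0.05; edgeR, adjusted p = 0.0102). ERN1 had 23.3, 26.0 and 23.4 CPM with IT848, against 24.9, 27.3 and 26.5 CPM with DMSO, groups that overlapped. Its 95% interval of the log2 fold change was −0.27 to 0.05. ATF6 had 51.2, 52.0 and 56.1 CPM with IT848, against 53.7, 53.6 and 52.5 CPM with DMSO, a log2 fold change of −0.00 ± 0.04. No translocation gene was called. SEC61B had 28.1, 25.5 and 25.6 CPM with IT848, against 23.4, 23.6 and 22.6 CPM with DMSO, a log2 fold change of 0.19 ± 0.07 that did not pass the test although the groups did not overlap.

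MZB1, so low in this line, had 9.14, 7.63 and 7.09 CPM with IT848 in U266, against 7.68, 7.78 and 8.04 CPM with DMSO. The highest of these is replicate 1, the library with reads of the other line. The log2 fold change of MZB1 in U266 was 0.02 ± 0.08, and −0.09 without the pair of libraries with such reads. In MM.1S, MZB1 had 237, 248 and 267 CPM with IT848, against 239, 246 and 258 CPM with DMSO, groups that overlapped. ERO1L in U266 had 29.6, 31.7 and 30.3 CPM with IT848, against 28.3, 33.0 and 31.7 CPM with DMSO. Its 95% interval in U266 was −0.14 to 0.10, and the difference from the response in MM.1S did not pass the test (−0.22 ± 0.08; edgeR, adjusted p = 0.0752).

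The U266 counts changed when libraries were left out. Without the library that held MM.1S reads and its MM.1S counterpart, 1 member rose and 2 fell (EDEM1, and TXNDC5 and HSPA5), while 5.46% of all genes were called. Those 3 calls held in every alternative run, and HSP90B1, DNAJB9, CALR, PDIA4, DERL3 and EIF2AK3 lost theirs in some. Without the pair, the log2 fold changes of these 6 were −0.13, 0.30, −0.16, −0.16, −0.23 and −0.17, and leaving out U266 DMSO replicate 1 or replicate 3 alone also ended 3 calls each.

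Across both lines, 5 members fell in each as fitted: HSP90B1, CALR, PDIA4, DERL3 and EIF2AK3. Of all genes tested, 19.6% were called lower in MM.1S and 4.98% in U266, and the share called in both was not determined. Each of the 5 lost its call in U266 in some alternative, and CALR and PDIA4 did so in MM.1S too. No member rose in both, EDEM1 rose in U266 and fell in MM.1S, and 19 were called in neither. The shares of all genes in these classes were not determined either, so these counts have no background to be set against. The members called in neither line included the stress-inducible genes HERPUD1, SDF2L1, CRELD2, MANF, HYOU1 and DNAJC3, of which HERPUD1, SDF2L1 and DNAJC3 were called in MM.1S once the length trend was taken out. HERPUD1, an ERAD scaffold whose promoter carries the ERSE-II shown, had 880, 869 and 856 CPM with IT848 in MM.1S, against 900, 892 and 890 CPM with DMSO. In U266 it had 458, 455 and 474 CPM with IT848, against 482, 462 and 469 CPM with DMSO. Its log2 fold changes had 95% intervals of −0.11 to 0.03 in MM.1S and −0.10 to 0.04 in U266. Of the 7 genes with an ERSE, HSP90B1 and CALR fell in both lines, HSPA5 fell in U266, ERO1LB rose in MM.1S, and CRELD2, CANX and PDIA6 were not called in either line.

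The responses of the lines differed for 9 of the 40 genes (edgeR, response in MM.1S minus response in U266, adjusted p below 0.05), 22.5%, while 17.4% of all genes tested differed, 8.49% higher and 8.94% lower. Of these, 4 were higher in MM.1S: TXNDC5 (0.39 ± 0.05), ERLEC1 (0.35 ± 0.06), EDEM2 (0.33 ± 0.09) and HSPA5 (0.26 ± 0.06). The 5 that were lower were EDEM1 (−0.50 ± 0.07), ERN1 (−0.48 ± 0.10), EDEM3 (−0.44 ± 0.09), UGGT1 (−0.30 ± 0.09) and DERL3 (−0.23 ± 0.07). Among them are 5 ERAD genes. TXNDC5 and HSPA5 fell in U266 and stood at 0.00 ± 0.03 and 0.01 ± 0.04 in MM.1S. EDEM1 is the single member called in opposite directions, at −0.15 ± 0.05 in MM.1S and 0.35 ± 0.05 in U266. The difference of EIF2AK3 did not pass the test, with a 95% interval of −0.34 to −0.04 before adjustment over all genes. EIF2AK3 and ERO1L were called lower for this difference with 1 transcript per gene and with the replicate block. HSPA5, TXNDC5, EDEM1, EDEM3, ERLEC1 and ERN1 kept their call in every alternative run, whereas UGGT1, EDEM2 and DERL3 lost theirs in some. Without the pair of libraries holding reads of the other line these 3 were not called, at −0.30, 0.34 and −0.23, and they were also lost on leaving out single libraries such as MM.1S DMSO replicate 1. With a length trend taken out, UGGT1 stood at −0.16.

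A further 156 pathway genes were examined, of which 154 were tested. Their RNA levels do not measure the activity of the UPR branches. XBP1 fell in both lines. In MM.1S it had 654, 666 and 690 CPM with IT848, against 973, 986 and 1005 CPM with DMSO (−0.56 ± 0.04; edgeR, adjusted p = 1.7e-07). In U266 it had 471, 481 and 500 CPM with IT848, against 667, 603 and 639 CPM with DMSO (−0.39 ± 0.04; edgeR, adjusted p = 2.39e-05). No treated library reached the lowest untreated one in either line. Counts per gene do not separate the spliced from the unspliced form of XBP1.

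Genes listed under the PERK and ATF4 branch moved the other way in U266, where 14 of 15 tested rose and 0 fell. Of all genes, 4.03% were higher and 4.98% lower in this line. The median log2 fold change of the branch genes was 0.52. Their list was chosen with earlier results of these data known. ATF4 itself had 675, 672 and 707 CPM with IT848, against 615, 613 and 606 CPM with DMSO (0.16 ± 0.04). DDIT3, which encodes the stress factor CHOP, had 158, 150 and 157 CPM with IT848, against 103, 108 and 99.99 CPM with DMSO (0.58 ± 0.08). The 5 called pathway genes with the widest changes in U266 all belong to this branch: PPP1R15A (0.91 ± 0.07), a phosphatase subunit that reverses PERK's mark, ATF3 (0.87 ± 0.06), TRIB3 (0.77 ± 0.06), DDIT4 (0.71 ± 0.07) and CEBPB (0.68 ± 0.07). ATF4 and its targets also respond to stresses that do not arise in the ER. Without those libraries that carried signal of the opposite line, 12 of the 15 rose, in a fit that also called fewer of all genes in U266.

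In MM.1S genes of the same branch were mixed, with 6 of 15 higher and 2 lower, against 18.7% and 19.6% of all genes. Their median was 0.12. ATF4 rose by 0.26 ± 0.04, DDIT3 was not called (0.15 ± 0.08), and DDIT4 fell by 0.69 ± 0.08. The test of the difference between lines was passed by 10 of the 15, 1 of them higher and 9 lower in MM.1S than in U266. It was passed by 17.4% of all genes, 8.49% higher and 8.94% lower. Of 29 other ERAD genes, 13 rose and 4 fell in MM.1S, where 18.7% of all genes were higher and 19.6% lower. VCP, the ATPase that pulls substrates from the ER membrane, rose by 0.53 ± 0.03, and its cofactor genes NPLOC4 and UFD1L rose by 0.71 ± 0.04 and 0.56 ± 0.07. UBXN4, which encodes a membrane anchor of VCP, rose by 0.56 ± 0.04. NPLOC4 had 146, 143 and 140 CPM with IT848, against 87.5, 88.5 and 86.0 CPM with DMSO. In U266, VCP and NPLOC4 rose by 0.18 ± 0.03 and 0.22 ± 0.04, and 5 of these 29 genes rose and 1 fell, where 4.03% of all genes were higher and 4.98% lower.

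The other pathway genes with the widest called changes in MM.1S were CLGN, a calnexin relative (0.84 ± 0.06), SELK, a selenoprotein of ERAD (0.75 ± 0.10), and MAN1A1, a glycan-trimming mannosidase (−0.69 ± 0.05). The counts of the next lists stand beside the same shares of all genes, 18.7% higher and 19.6% lower in MM.1S, and 4.03% and 4.98% in U266. No length trend was taken out of the counts of the pathway lists. In MM.1S that trend was a Spearman correlation of −0.35 over 10359 genes, and its part in these counts was not tested. In MM.1S, 7 of 24 N-glycosylation and glycan-trimming genes rose and 6 fell, against 1 and 1 in U266. Of 25 genes of ER export and retrieval, 11 rose and 5 fell in MM.1S, and 0 rose and 2 fell in U266. Targeting and translocation, with 21 genes, had 6 higher and 1 lower in MM.1S, and 0 higher and 2 lower in U266. For 24 other folding enzymes the counts were 8 and 3 in MM.1S and 0 and 1 in U266. The group of UPR transcription factors and sensor regulators, which includes XBP1, had 2 of 16 higher and 6 lower in MM.1S, and 0 higher and 2 lower in U266. Over all 154 tested pathway genes, there were 53 rises and 27 falls in MM.1S, and 20 rises and 9 falls in U266. Without the same pair of libraries, the counts were 43 and 19 in MM.1S, and 15 and 6 in U266. The shares of all genes given above belong to the fit of all 12 libraries. In the smaller fit fewer of all genes were called in U266, and the share for MM.1S is not given here.

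**Figure D5:**
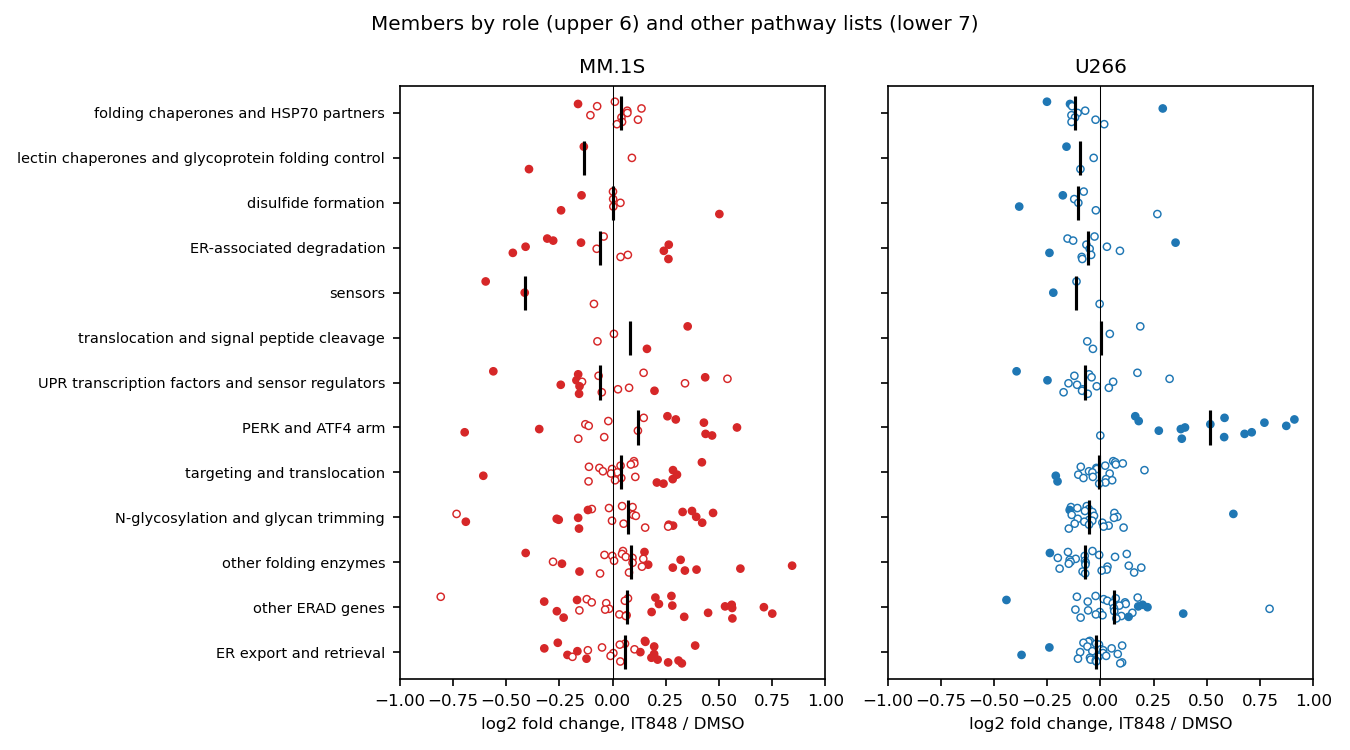
Log2 fold change of IT848 over DMSO of the members by role (upper 6 rows) and of the other pathway lists (lower 7 rows) in MM.1S (left) and U266 (right). Filled points have an adjusted p below 0.05 by edgeR and bars mark the median of a list; the PERK and ATF4 arm has a median of 0.52 in U266 and 0.12 in MM.1S.

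Some members share exons with other genes, 20 of the 40 in the GENCODE annotation of GRCh38, and the strand setting of the counts is not given in the sources used here. DERL3 overlaps SMARCB1 on the opposite strand, SPCS1 overlaps NEK4, and TXNDC5 lies within a readthrough gene. PDIA6 overlaps ATP6V1C2 on the opposite strand, and EIF2AK3, EDEM1, ERO1L and HYOU1 overlap antisense genes. The counts of all these members may hold reads of their partners. HSP90B1 and PDIA3 have near-identical pseudogene copies, and their counts are uncertain for that reason. The shortest of the 3 DERL3 transcripts had log2 ratios of IT848 over DMSO of −0.33 in MM.1S and −0.20 in U266.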

How the data were processed

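The tools named in the submitters' processing notes are bcl2fastq, Trimmomatic 0.36, STAR 2.5.2b, featureCounts and Subread 1.5.2, with hg19 as the build. Each deposited table lists 51780 RefSeq transcripts with 3 values. Its count column, per the file headers, holds reads assigned by the authors to a transcript, and a read is counted for every transcript it overlaps. The authors' FPKM scales it to length and library, and served here to recover transcript lengths. The authors' TPM served as a check.

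Counts were summed per symbol, which repeats reads of a gene with several transcripts (17 of the 40 members). They were tested in R 4.3.3 with edgeR 4.0.16 (quasi-likelihood F test, robust, TMM, filterByExpr with a minimum count of 10) on all 12 libraries, with Benjamini-Hochberg adjustment over 16782 genes and calls at an adjusted p below 0.05. The test was run on simulated data with known changes first. A level is TMM-scaled CPM, and errors of fold changes are SE. Totals with 1 transcript per gene were 22887469 to 32913396, so counting error is small for most members. It is larger for ERO1LB, which had 1.88 to 2.73 CPM in U266 DMSO. The lowest count of any member in a library was 104.

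Alternatives were DESeq2 1.42.0, other size factors, no filter, 1 transcript per gene, fewer libraries, a replicate block and a length trend (lowess span 0.4, genes above a log2 CPM of 2) taken out as an offset. All 40 members could be named. Values in each library are given for the sensors, for the 8 called members of widest change in each comparison of IT848 or of the responses, and per role. The members and lists were chosen with earlier results of these data known. No column of the tables was left unassigned.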

Additional observations from a re-analysis of the deposited data

Results flagged for a closer look

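The response to IT848 differed between the lines for 9 members by edgeR's test of the difference itself (adjusted p below 0.05). The differences, response in MM.1S minus response in U266 on the log2 scale, were −0.50 for EDEM1, −0.48 for ERN1, −0.44 for EDEM3, −0.30 for UGGT1 and −0.23 for DERL3 on the lower side. On the higher side they were 0.39 for TXNDC5, 0.35 for ERLEC1, 0.33 for EDEM2 and 0.26 for HSPA5. Their adjusted p-values ran from 8.95e-05 for TXNDC5 to 0.0416 for UGGT1. Groups of 3 libraries are too small for a test of single outlying libraries, so none was made.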

How the results depend on the processing

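The counts of members higher and lower in MM.1S and between the untreated lines stayed within 1.5 times under every alternative run. In U266, 7 members fell in the reported fit, 12 with DESeq2 (13.4% of all genes called) and 2 without the pair of libraries holding reads of the other line, where 1 rose instead of 2. For the difference of responses, 4 were higher in MM.1S in the reported fit, 9 with DESeq2 (23.9% of all genes) and 3 without the pair, and 5 were lower, or 3 without the pair. Leaving out each library in turn gave 1 to 2 higher and 4 to 10 lower in U266, 4 to 9 higher and 10 to 12 lower in MM.1S, 3 to 7 higher and 3 to 6 lower for the difference, and 25 to 27 higher and 9 to 11 lower between the lines. In U266 the count lower was 4 without IT848 replicate 1, and the count higher was 1 without DMSO replicate 1, DMSO replicate 3 or IT848 replicate 3. For the difference, 7 were higher without MM.1S IT848 replicate 1. The shares of all genes called in these fits with a library left out are not given here. With the length trend taken out, log2 fold changes in MM.1S changed sign for SDF2L1 (−0.195), MZB1 (−0.221) and SPCS1 (−0.0325). The cause was not tested. Scaling moved the median of all genes by less than 0.1 on the log2 scale.

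The replicate numbers were checked for pairing. Deviations of same-numbered IT848 and DMSO libraries correlated at 0.103, 0.136 and −0.0339 in U266 and at 0.416, −0.107 and 0.399 in MM.1S. In MM.1S, IT848 replicate 1 correlated at −0.412 with DMSO replicate 3, and IT848 replicate 3 at −0.465 with DMSO replicate 1. Not every library correlated best with its own number. Whether same-numbered libraries were handled together is not stated, and the reported fit holds no replicate term. With the replicate block, 7 members were higher and 8 lower for the difference of responses (26.1% of all genes called), and 3 higher and 10 lower in U266 (12.8%).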
